A study of Mus musculus with 12 samples.

Results

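The contractile genes of vascular smooth muscle were examined in RNA-seq of mouse sciatic nerve. The set held 10 genes, *Myh11*, *Acta2*, *Tagln*, *Cnn1*, *Smtn*, *Des*, *Lmod1*, *Pgm5*, *Itga8* and *P2rx1*, of the 43432 genes in the count table. Each was found by its symbol, and all 10 were among the 17257 genes that passed the filter on low counts. *P2rx1* was chosen by its level, since it was already known as lowered in these *Mtmr2* KO libraries, and the other 9 were chosen for their known role with the counts of the *Mtmr2* KO and WT control libraries in view. *Itga8* is also on lists that the study made from genes lowered in these libraries. The *Mtmr2* KO against WT control values of the 10 genes are therefore given as a description. The number of them past a threshold in that comparison is counted beside the share of all genes, and supports nothing.

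Sciatic nerves were collected at 1 month of age from mice of a 129/SvPas background in 3 groups of 4 libraries, with 1 nerve per mouse. WT control mice (Mtmr2 wt/wt) and *Mtmr2* KO mice (Mtmr2 -/-) got no niacin, with their treatment labelled as none, though the study's text names a vehicle for the second group. The KO mice lacked, in every cell, the myotubularin-related phosphoinositide phosphatase whose loss in humans causes the neuropathy Charcot-Marie-Tooth 4B1. The third group was *Mtmr2* KO mice given niacin from day 10 to day 30. Until day 21 it was given at 120 mg/kg by intraperitoneal injection. After that it was given as slow-release granules by gavage, at a higher dose according to the study's text. Each group held 3 males and 1 female, and libraries carry the replicate numbers of the labels, 4497 to 4500 for WT control, 4501 to 4504 for *Mtmr2* KO and 4505 to 4508 for niacin-treated *Mtmr2* KO. The comparisons ask how the mutant nerve differs from the control nerve and whether niacin moves it.

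Smooth muscle cells form the wall of the arterioles that feed the nerve through its outer sheath. They shorten when myosin pulls on actin filaments, and the force is set by calcium, by actin-binding proteins and by receptors for nerve-released and circulating signals. In the mature contractile state these cells express a typical set of genes that serum response factor and its partner myocardin switch on. Sympathetic nerve endings contract small arteries partly through ATP, which opens the channel encoded by *P2rx1*. In RNA of a whole nerve, fewer smooth muscle cells and less of a transcript per cell cannot be told apart.

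Totals ranged from 20763951 to 33191106 counts per library. *Mtmr2* itself was at 128 to 161 CPM, the count scaled by the library's total, in WT control and at 66.8 to 73.5 CPM in niacin-treated nerves, but in the *Mtmr2* KO group only libraries 4501, 4502 and 4504 were low, at 69.5 to 84.7 CPM. The library labelled *Mtmr2* KO replicate 4503 had 143 CPM, within the range of WT control. Values without it are therefore also given for *Myh11*, *Lmod1* and *P2rx1* and for the medians and calls of the 10 genes. The gene lists, cell type markers, correlations and ratios include it as labelled. The sources used here do not say which part of the gene is deleted. Library 4502 stood apart from the other 3 of its group across all genes. The chi-square per degree of freedom of its counts against theirs was 180 to 326, where it was 36.4 to 115 between those 3. *Xist*, which marks female mice, was at 687 CPM in library 4502 and at 3.00 to 5.99 CPM in those 3. Leaving out library 4502 therefore also removes the 1 female of its group. In the other groups *Xist* was high in libraries 4498 and 4506, at 545 and 585 CPM. The median SD of log2 CPM over genes was 0.40 in the *Mtmr2* KO group against 0.16 in WT control. Libraries 4506 and 4507 held skeletal muscle RNA, with a summed level of 14 fibre genes of 4362 and 4306 CPM against 45.9 to 156.6 CPM in the other 10. The defining genes of smooth muscle, *Myh11* and *Acta2*, were present in every library.

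In WT control nerve, levels per length of merged exons ranged over 2 orders of size among the 10 genes. *Tagln* came first with 225 ± 67 CPM per kb (SD, n = 4), followed by *Acta2* with 113 ± 54 and *Smtn* with 92.8 ± 9.1 CPM per kb. *Myh11* had 20.8 ± 8.0 CPM per kb, *Cnn1* 5.89 ± 5.09 and *Des* 5.83 ± 0.49. The lowest were *Pgm5* with 4.08 ± 1.37, *Lmod1* with 3.02 ± 1.15, *Itga8* with 1.41 ± 0.60 and *P2rx1* with 1.40 ± 1.09 CPM per kb. Neighbours in this order overlapped between libraries except *Smtn* over *Myh11*, *Myh11* over *Cnn1*, and *Lmod1* over *Itga8*.

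**Figure D1:**
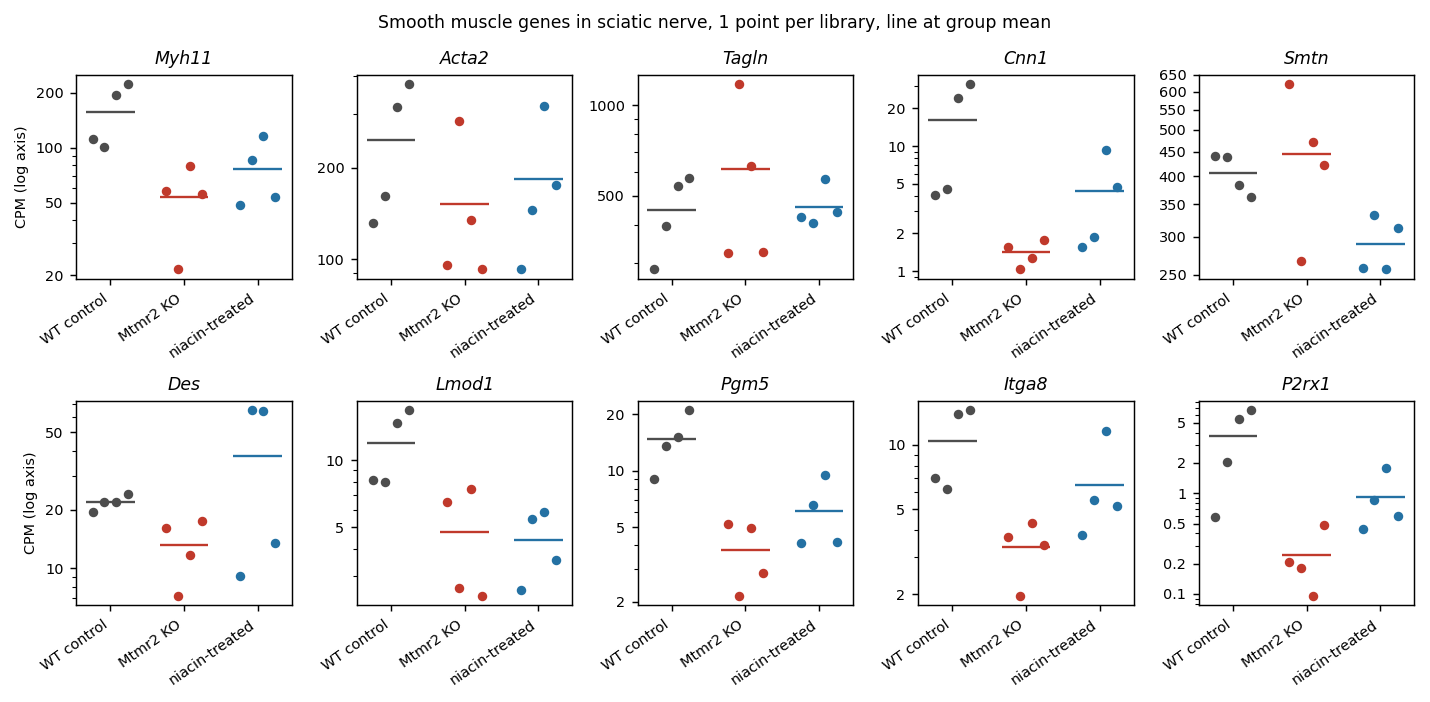
CPM on a log axis of the 10 smooth muscle genes, with 1 point per library in replicate order within each group and a line at the group mean. The *Mtmr2* KO libraries lay under all WT control libraries for 7 genes, and the groups overlapped for *Acta2*, *Tagln* and *Smtn*.

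*Myh11*, the smooth muscle myosin heavy chain and the gene most restricted to this cell type (chromosome 16, 14194535 to 14291372 of GRCm38, minus strand), was at 111, 101, 195 and 224 CPM in the WT control libraries in replicate order. It was at 57.9, 21.5, 79.3 and 55.9 CPM in *Mtmr2* KO and at 48.4, 86.0, 116 and 53.9 CPM in niacin-treated nerves. All *Mtmr2* KO libraries were under all WT control libraries, while the niacin-treated libraries overlapped both groups. The log2 fold change of *Mtmr2* KO against WT control was -1.56 ± 0.39 (SE), -1.81 without library 4503 and -1.30 without library 4502.

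*Acta2*, smooth muscle alpha actin (chromosome 19, 34241090 to 34255590, minus strand), the thin filament, is also made by pericytes and activated fibroblasts. Its levels were 132, 161, 318 and 378 CPM in WT control, 95.7, 285, 134 and 92.6 CPM in *Mtmr2* KO and 92.8, 145, 320 and 175 CPM in niacin-treated nerves. Library 4502 was the one *Mtmr2* KO library well inside the WT control range, and the log2 fold change was -0.70 ± 0.45 with it and -1.20 without it. The coding sequence of *Acta2* is close to that of other actin genes, so reads may be shared with them.

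The set was compared with the sequence around the RefSeq starts of its genes, because several members are known targets of serum response factor, which binds the CArG box (CC, then 6 bases of A or T, then GG, searched on both strands). RefSeq windows of 250 bases before to 50 bases after the gene start, on GRCm38.p6, were matched for 8 of the 10 genes and not for *Myh11* or *Tagln*. The RefSeq start can differ from the end of the GENCODE gene span given with each gene. The sites shown for *Acta2* and *Smtn* lie inside those spans. None of the 8 windows held a full CArG box, which is in 1.629% of all 32851 windows. With 1 C or G allowed among the 6 central bases the share was 9.984% of all windows, and *Acta2* alone of the 8 held such a site, in 2 places. These sites are shown because they are the only near matches to a CArG box in the 8 windows, with the box in capitals, 5′ to 3′ on the minus strand at chr19:34255438-34255467 and chr19:34255388-34255417:
Acta2 distal: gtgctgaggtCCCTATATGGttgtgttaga
Acta2 proximal: cgtctttgctCCTTGTTTGGgaagcgagtg

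The MCAT element CATTCC, the binding sequence of TEAD factors, was searched on both strands and was present in 14.663% of windows and in 3 of the 8. These were *Acta2* (chr19:34255502-34255531, minus strand), *Lmod1* (chr1:135324671-135324700, plus strand) and *Smtn* (chr11:3539497-3539526, minus strand), printed along the gene's strand with the element in capitals, as GGAATG where it lies on the other strand:
Acta2: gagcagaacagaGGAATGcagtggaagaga
Lmod1: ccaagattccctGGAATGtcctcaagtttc
Smtn: cggtttgtggcaCATTCCggactttggctt
The 3 genes with this element did not share a pattern of levels across the libraries, as their values below show. A match of letters is a description and not a binding site.

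*Tagln*, transgelin, an actin-binding protein of smooth muscle that other contractile cells can also make (chromosome 9, 45929619 to 45936058, minus strand), was at 285, 398, 537 and 572 CPM in WT control. It was at 324, 1179, 629 and 326 CPM in *Mtmr2* KO and at 424, 405, 569 and 441 CPM after niacin. The groups overlapped throughout, and library 4502 alone stood far above the rest. The log2 fold change of *Mtmr2* KO against WT control was 0.46 ± 0.36, and -0.074 without library 4502. The antisense gene Gm48529 shares 1241 exon bases with *Tagln*, and reads of the 2 genes cannot be told apart if strand was not used in counting.

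*Cnn1*, calponin 1, binds actin and restrains the myosin motor (chromosome 9, 22099216 to 22109630, plus strand). It was at 4.04, 4.57, 24.4 and 31.5 CPM in WT control, at 1.57, 1.03, 1.28 and 1.78 CPM in *Mtmr2* KO, and at 1.57, 1.86, 9.32 and 4.68 CPM in niacin-treated nerves. The *Mtmr2* KO libraries were tightly grouped under the lowest WT control library, whereas the WT control libraries spanned 7.80-fold. *Cnn1* differed by -3.51 ± 0.72 on the log2 scale, and this was -2.96 without WT control library 4500.

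*P2rx1*, the ATP-gated cation channel (chromosome 11, 72999103 to 73015200, plus strand), was the least abundant of the 10. It was at 0.582, 2.05, 5.41 and 6.70 CPM in WT control, from 16 to 196 counts. It was at 0.209, 0.179, 0.0961 and 0.481 CPM in *Mtmr2* KO, from only 3 to 10 counts per library, and at 0.441, 0.867, 1.78 and 0.600 CPM in niacin-treated nerves, from 9 to 39 counts. No *Mtmr2* KO library reached the lowest WT control library, though library 4504 at 0.481 CPM came close to library 4497 at 0.582 CPM. On the log2 scale *P2rx1* differed by -3.97 ± 0.74, -3.68 without library 4503 and -3.51 without WT control library 4500.

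*P2rx1* and *Cnn1* had the largest differences of the set, and the sequence before their first annotated exon base is shown for that reason, in lower case because none of the searched elements was in it. The *P2rx1* stretch is chr11:72998895-72999102, plus strand, with 62.98% G and C, and the *Cnn1* stretch is chr9:22099003-22099215, plus strand, with 58.69% G and C:
P2rx1: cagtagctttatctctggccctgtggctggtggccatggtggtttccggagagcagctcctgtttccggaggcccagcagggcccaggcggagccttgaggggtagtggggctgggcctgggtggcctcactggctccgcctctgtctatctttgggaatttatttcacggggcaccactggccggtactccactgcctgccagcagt
Cnn1: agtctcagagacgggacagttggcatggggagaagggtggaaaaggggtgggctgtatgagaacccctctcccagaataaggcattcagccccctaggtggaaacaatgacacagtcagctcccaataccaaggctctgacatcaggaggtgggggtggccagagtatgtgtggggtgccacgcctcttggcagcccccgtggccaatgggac

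*Smtn*, smoothelin, an actin-associated protein of contractile smooth muscle (chromosome 11, 3517523 to 3540612, minus strand), went its own way. Its levels were 441, 439, 384 and 362 CPM in WT control, 623, 266, 471 and 423 CPM in *Mtmr2* KO, and 259, 332, 256 and 312 CPM in niacin-treated nerves. WT control and *Mtmr2* KO overlapped, with a log2 fold change of 0.13 ± 0.21, while all niacin-treated libraries were under all WT control libraries. The antisense transcripts Gm11946 and Gm11947 share 714 and 39 exon bases with it.

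*Des*, desmin, the intermediate filament of muscle cells, is made by smooth and skeletal muscle and by pericytes (chromosome 1, 75360329 to 75368579, plus strand). It was at 19.6, 22.0, 21.9 and 24.1 CPM in WT control, the smallest SD of log2 CPM of the 10 genes, and at 16.1, 7.22, 11.7 and 17.4 CPM in *Mtmr2* KO. In niacin-treated nerves it was at 9.16, 65.2, 64.2 and 13.4 CPM, so that 2 libraries were above and 2 were under every WT control library. The *Mtmr2* KO libraries were all under WT control, with a log2 fold change of -0.74 ± 0.51. The antisense gene Gm15179 shares 220 exon bases with *Des*.

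*Lmod1*, leiomodin 1, starts new actin filaments in smooth muscle (chromosome 1, 135324807 to 135368065, plus strand). It was at 8.15, 8.02, 14.7 and 16.8 CPM in WT control, 6.48, 2.65, 7.40 and 2.45 CPM in *Mtmr2* KO, and 2.60, 5.46, 5.85 and 3.56 CPM in niacin-treated nerves. Both *Mtmr2* KO groups were under WT control in every library. The log2 fold change of *Mtmr2* KO against WT control was -1.32 ± 0.39, and -1.61 without library 4503.

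*Pgm5*, aciculin, a phosphoglucomutase relative of muscle that has no known role in sugar metabolism, sits where actin filaments meet the membrane (chromosome 19, 24683016 to 24861855, minus strand). It was at 9.09, 13.6, 15.1 and 21.1 CPM in WT control, 5.23, 2.15, 4.97 and 2.84 CPM in *Mtmr2* KO, and 4.11, 6.55, 9.50 and 4.16 CPM in niacin-treated nerves. The *Mtmr2* KO libraries were all under WT control, and 1 niacin-treated library, 4507, was above the lowest WT control library. For *Pgm5* the log2 fold change was -1.94 ± 0.35, between -2.14 and -1.72 when single libraries were left out.

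*Itga8*, the alpha 8 integrin, pairs with the beta 1 chain to bind matrix proteins such as nephronectin (chromosome 2, 12106632 to 12301922, minus strand). It was at 6.98, 6.22, 13.98 and 14.52 CPM in WT control, 3.69, 1.97, 4.29 and 3.42 CPM in *Mtmr2* KO, and 3.77, 5.55, 11.6 and 5.19 CPM in niacin-treated nerves. The *Mtmr2* KO libraries were again the lowest as a group, and only niacin-treated library 4507 lay inside the WT control range. The log2 fold change of *Mtmr2* KO against WT control was -1.63 ± 0.38. The antisense gene E030013I19Rik shares 372 exon bases with *Itga8*.

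Over the 10 genes, 8 had a negative log2 fold change of *Mtmr2* KO against WT control, and the median was -1.44, against 0.03 over all tested genes. The groups did not overlap for 7 of the 10, all lower in *Mtmr2* KO, where 5.46% of all tested genes were separate in that direction. At an edgeR adjusted p under 0.05, the rule used here for a call, 2 of the 10 were called (*Pgm5* and *P2rx1*), beside 0.267% of all tested genes. The set was chosen with this comparison in view, so nothing is read from these counts. The median was -1.70 without library 4503 and -1.25 without library 4502. The number called was 0 when any 1 WT control library or library 4503, 4506, 4507 or 4508 was left out. Those fits called 0% of all genes, except 0.0344% without 4503 and 0.0615% without 4506. The number was 1 without 4502 (0.446% of all genes), 2 without 4504 (1.54%) or 4505 (0.291%), and 3 without 4501 (2.6%). DESeq2 on all 12 libraries called 6 of the 10, beside 4.16% of all genes, and limma-voom with quality weights called 0, beside 0.626%.

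**Figure D2:**
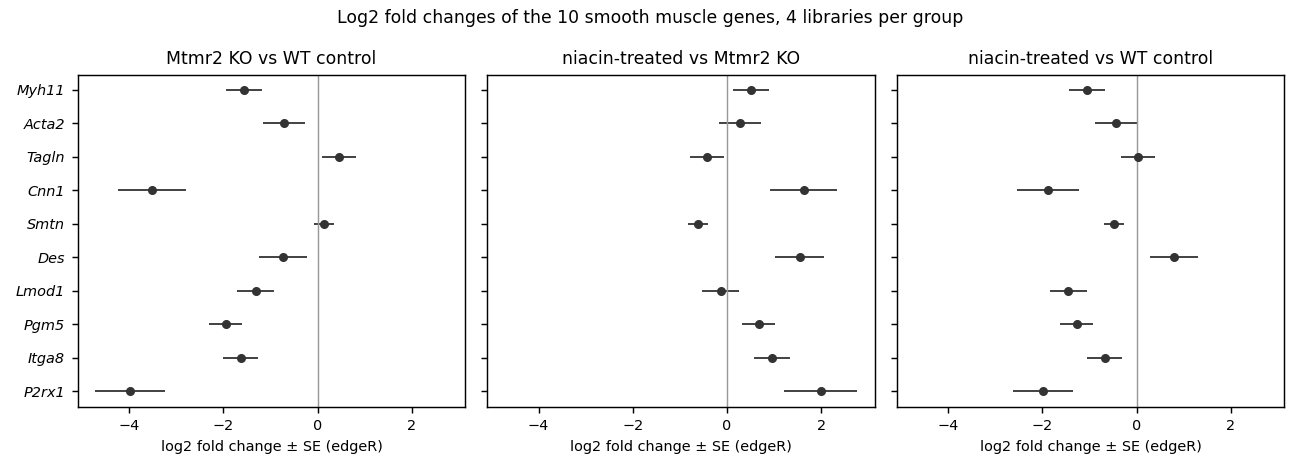
Log2 fold change with its SE (edgeR, 4 libraries per group) of the 10 smooth muscle genes in the 3 comparisons. *Cnn1* and *P2rx1* are farthest from 0 between *Mtmr2* KO and WT control, at -3.51 and -3.97, and *Tagln* and *Smtn* are near 0.

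The libraries of a group were far from uniform for these genes. In WT control, libraries 4499 and 4500 were both above 4497 and 4498 for 8 of the 10 genes, the exceptions being *Smtn*, where they were lower, and *Des*, where library 4498 was at the level of 4499. In the controls the SD of log2 CPM was 1.55 for *Cnn1* and 1.53 for *P2rx1*, larger than for 99.9% of tested genes, and it was 0.14 for *Smtn* and 0.12 for *Des*. The median SD of the 10 genes was 0.57 in WT control, 0.65 in *Mtmr2* KO and 0.63 after niacin, against 0.16, 0.40 and 0.22 over all tested genes.

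Across the 12 libraries, *Myh11*, *Cnn1*, *Lmod1*, *Pgm5*, *Itga8* and *P2rx1* moved together. Pearson's r of log2 CPM over their 15 pairs was 0.67 to 0.95 with a median of 0.88, and with each group's mean removed the median was 0.79. *Myh11* and *Itga8* were the closest pair with r of 0.95. Pairs with *Tagln* had a median r of -0.13 and pairs with *Smtn* a median of -0.06, and *Tagln* and *Smtn* were opposed, with r of -0.52. *Acta2* and *Tagln* had r of 0.66. These correlations are descriptions over 12 libraries that share the groups, the scaling and the libraries that stand apart.

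**Figure D3:**
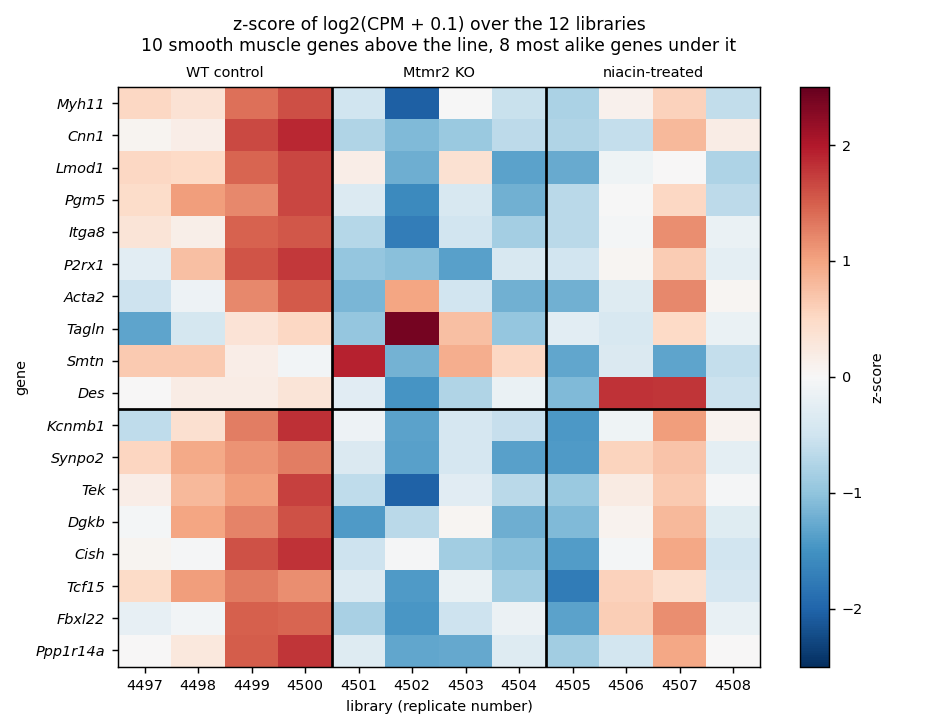
z-scores of log2(CPM + 0.1) over the 12 libraries, red above and blue under the gene's mean, for the 10 smooth muscle genes and, under the line, the 8 genes most like their mean. The first 6 genes are highest in WT control libraries 4499 and 4500, while *Tagln* peaks in library 4502, *Smtn* in 4501 and *Des* in 4506 and 4507.

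The 8 other genes most like the mean z-score of the set over the 12 libraries were *Kcnmb1*, *Synpo2*, *Tek*, *Dgkb*, *Cish*, *Tcf15*, *Fbxl22* and *Ppp1r14a*, with r from 0.94 to 0.91. *Kcnmb1* is the beta subunit that tunes the large calcium-activated potassium channel of smooth muscle, and it was at 0.509 to 3.31 CPM in WT control and 0.269 to 0.766 CPM in *Mtmr2* KO. *Synpo2* encodes an actin-bundling protein and *Ppp1r14a* an inhibitor of myosin phosphatase. *Tek* is the angiopoietin receptor of endothelium, and it is also on lists of lowered genes that the study made from these libraries. The genes most like *P2rx1* were *Ppp1r14a*, *Cnn1*, *Kcnh2*, *Stc2* and *Rtn4rl1*, with r from 0.93 to 0.89.

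The niacin-treated *Mtmr2* KO nerves were compared with *Mtmr2* KO nerves without niacin to see whether the levels moved under treatment. They were higher for 7 of the 10 genes and lower for *Tagln*, *Smtn* and *Lmod1*, with a median log2 fold change of 0.59 against -0.04 over all tested genes. The median was 0.79 without library 4503 and 0.60 without library 4502, and 2 signs turned, *Lmod1* to 0.16 without 4503 and *Tagln* to 0.090 without 4502. None of the 10 was called in edgeR, beside 1.43% of all tested genes, with adjusted p from 0.129 to 0.879, and 5 had an unadjusted p under 0.05, as did 3472 of the 17257 genes. The groups overlapped for all 10, where 7.01% of tested genes were separate in either direction. The comparison shares the *Mtmr2* KO libraries with the one against WT control, so opposite signs in the 2 comparisons are not independent.

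*P2rx1* had the largest difference after niacin, with a log2 fold change of 1.98 ± 0.78 (edgeR adjusted p = 0.181), from counts of 3 to 10 and 9 to 39. *Cnn1* followed with 1.62 ± 0.71 (edgeR adjusted p = 0.221), then *Des* with 1.54 ± 0.51 (edgeR adjusted p = 0.129) and *Itga8* with 0.96 ± 0.38 (edgeR adjusted p = 0.184). *Myh11* differed by 0.51 ± 0.38 (edgeR adjusted p = 0.478). *Smtn* was lower by -0.62 ± 0.21 (edgeR adjusted p = 0.134), and it was called without library 4502, at -0.82, in a fit that called 23.6% of all genes. The highest niacin-treated library was 4507 for all of the 10 genes except *Smtn* and *Des*, for which it was 4506.

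Libraries 4506 and 4507 held the skeletal muscle RNA described above. All 14 tested skeletal muscle genes were higher in niacin-treated than in *Mtmr2* KO nerves, 10 of them called, with a median log2 fold change of 5.19. Without these 2 libraries the log2 fold change of *Des* against *Mtmr2* KO was -0.23 in place of 1.54, and the median of the 10 genes was -0.14 in place of 0.59. *Myh11* was then at -0.085 and *Acta2* at -0.19, while *Cnn1* stayed above 0 at 1.12 and *P2rx1* at 1.15, none of them called. Levels of *Des* in libraries 4505 and 4508, 9.16 and 13.4 CPM, were in the range of *Mtmr2* KO.

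**Figure D4:**
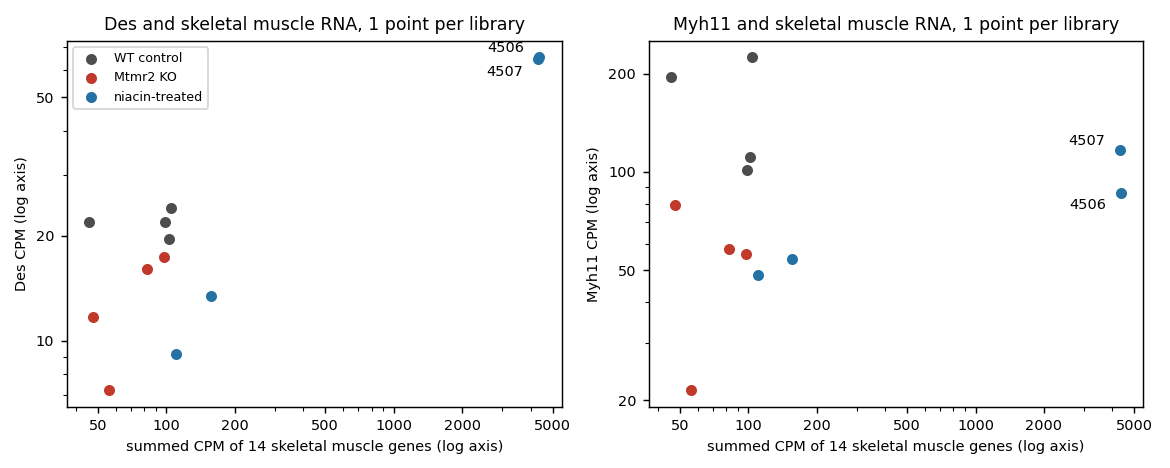
*Des* (left) and *Myh11* (right) in CPM against the summed CPM of 14 skeletal muscle genes, log axes, 1 point per library, coloured by group. Libraries 4506 and 4507, at 4362 and 4306 CPM of skeletal muscle genes, have the highest *Des* levels, 65.2 and 64.2 CPM, and *Myh11* levels of 86.0 and 116 CPM.

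Niacin-treated *Mtmr2* KO nerves were also set against WT control, to see which differences remained under treatment. Lower values were found for 8 of the 10 genes, with a median log2 fold change of -0.86 against 0.02 over all tested genes. None was called in edgeR, beside 0% of all tested genes, and 6 of the 10 had an unadjusted p under 0.05, as did 4254 of the 17257 genes. *Lmod1* and *Smtn* were lower in every niacin-treated library than in every WT control library, 2 of the 10, where 16.6% of all tested genes were separate in that direction. The comparison shares libraries with both of the others.

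*P2rx1* was at -1.99 ± 0.64 against WT control (edgeR adjusted p = 0.115), *Cnn1* at -1.88 ± 0.66 (edgeR adjusted p = 0.130) and *Lmod1* at -1.45 ± 0.39 (edgeR adjusted p = 0.0929). *Pgm5* was at -1.28 ± 0.34 (edgeR adjusted p = 0.0915) and *Myh11* at -1.05 ± 0.38 (edgeR adjusted p = 0.139). A fit of only these 2 groups, whose libraries vary less than those of *Mtmr2* KO, called *Myh11*, *Smtn*, *Lmod1*, *Pgm5* and *P2rx1*, all lower after niacin than in WT control, where it called 33.9% of all genes. The fit of all groups without library 4502 called the same 5, where it called 21.6% of all genes. With shares this high, 5 of 10 is no result about the set. *Des* was at 0.80 ± 0.50 (edgeR adjusted p = 0.322) and at -0.99 without libraries 4506 and 4507.

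The rest of the contractile machinery was described with 15 further genes, of which 10 were lower in *Mtmr2* KO. Their median log2 fold change was -0.20, and none was called. The 4 most abundant were *Myl6*, a myosin light chain of many cell types, at 0.88 ± 0.28, *Csrp1* at 0.41 ± 0.20, *Tpm1* at 0.15 ± 0.39 and *Cald1*, caldesmon, at -0.19 ± 0.15. *Myl6* was highest in libraries 4502 and 4503, at 1490 and 1140 CPM against 442 to 619 CPM in WT control. *Csrp1* was separate and higher, at 637 to 1071 CPM in *Mtmr2* KO against 534 to 632 CPM in WT control. The less abundant *Synpo2* was at 33.9 to 52.4 CPM in WT control and 11.1 to 20.0 CPM in *Mtmr2* KO without overlap. *Ppp1r14a* was at 5.02 to 13.1 and 2.42 to 4.19 CPM, also without overlap. Both are named for being most like the mean of the set. Of the 15, 5 were separate and lower and 1 was separate and higher. Of all tested genes, 5.46% were separate and lower. The list was chosen with earlier results of these data known, so nothing is read from these counts. After niacin 8 of the 15 were higher than in *Mtmr2* KO, and *Tpm1*, which skeletal muscle also makes, was at 689 and 926 CPM in libraries 4506 and 4507 against 216 to 449 CPM in the other 10.

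Of 8 transcription regulators of smooth muscle, 6 were lower in *Mtmr2* KO, with a median of -0.29 and none called. *Srf*, serum response factor, was at -0.27 ± 0.16, and *Mkl2*, which encodes a coactivator of it, was at 0.03 ± 0.24. *Notch3*, the receptor that maintains arterial smooth muscle, was at 64.6 to 82.3 CPM in WT control, 16.1 to 65.3 CPM in *Mtmr2* KO and 15.5 to 40.8 CPM after niacin. Its niacin-treated libraries were all under WT control, with a log2 fold change of -1.27 ± 0.37 (edgeR adjusted p = 0.101). *Mef2c* was the one of the 4 most abundant regulators with a positive value after niacin against *Mtmr2* KO, 0.62 ± 0.15 (edgeR adjusted p = 0.0625). It was at 45.5 and 49.7 CPM in libraries 4506 and 4507, which held skeletal muscle RNA. In libraries 4505 and 4508 it was at 36.0 and 31.6 CPM, and in *Mtmr2* KO at 23.7 to 29.5 CPM. The part of skeletal muscle RNA in this difference was not tested.

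Receptors through which vessels are told to contract or relax were lower in *Mtmr2* KO in 12 of 13 cases, with a median log2 fold change of -0.63 and none called. Of the 4 most abundant, *Ednrb*, an endothelin receptor, was at -0.42 ± 0.28, *Tbxa2r*, the thromboxane receptor, at 0.08 ± 0.29, and the guanylate cyclase subunits *Gucy1b1* and *Gucy1a1*, which sense nitric oxide, at -0.29 ± 0.15 and -0.73 ± 0.22. *Gucy1a1* was at 25.6 to 29.8 CPM in WT control and 10.4 to 21.9 CPM in *Mtmr2* KO without overlap. In total 8 of the 13 were separate and lower, where 5.46% of all tested genes were separate in that direction. The list was chosen with earlier results of these data known, so nothing is read from this count. *Ednra*, *Adra1d* and *Npr1* of this list were also on lists of lowered genes that the study made from these libraries, so they are not independent of it. After niacin 10 of the 13 were above *Mtmr2* KO, with a median of 0.18 and none called.

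All 11 ion channel and calcium store genes of smooth muscle were lower in *Mtmr2* KO, with a median of -0.72, and none was called. Of the 11, 6 were without overlap, where 5.46% of all tested genes were separate in that direction. This list too was chosen with earlier results of these data known, so nothing is read from the count. *Itpr1*, the calcium release channel, was at -0.72 ± 0.22, *Ano1*, a chloride channel, at -0.82 ± 0.27, and the potassium channel subunits *Kcnj8* and *Abcc9* at -0.48 ± 0.21 and -0.28 ± 0.26. *Kcnmb1* was at -1.70 ± 0.59. The lowest library of the group was 4502 for *Itpr1*, *Ano1*, *Kcnj8*, *Abcc9* and *Kcnmb1*.

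The other purinergic genes were spread around 0. Of 12 tested, 6 were lower and 6 higher in *Mtmr2* KO, with a median of 0.03, no separate groups and none called. *P2rx4*, another ATP-gated channel, was at 32.5 to 37.4 CPM in WT control and 25.4 to 33.3 CPM in *Mtmr2* KO. *P2rx7*, *P2ry2* and the ATP-degrading enzyme *Entpd1* were among the 4 most abundant and had overlapping ranges. *P2rx1* is also known from platelets, whose 4 tested genes of 7 had a median of -0.02, with *Pf4* at 13.3 to 26.6 CPM in WT control and 10.5 to 42.2 CPM in *Mtmr2* KO.

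Among 14 tested partners of *Itga8* and *Pgm5* at cell contacts, 11 were lower in *Mtmr2* KO, with a median of -0.23 and none called. *Itgb1*, the chain that pairs with *Itga8*, was at 0.02 ± 0.15, and *Utrn*, utrophin, which binds aciculin, was at 0.05 ± 0.18. *Fn1*, fibronectin, was at -0.69 ± 0.29 and *Spp1*, osteopontin, at 0.40 ± 0.29. *Npnt*, the nephronectin gene, was at -0.84 ± 0.24 and was the single separate gene of the list, named after its values were seen. Of all tested genes, 5.46% were separate in that direction.

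**Figure D5:**
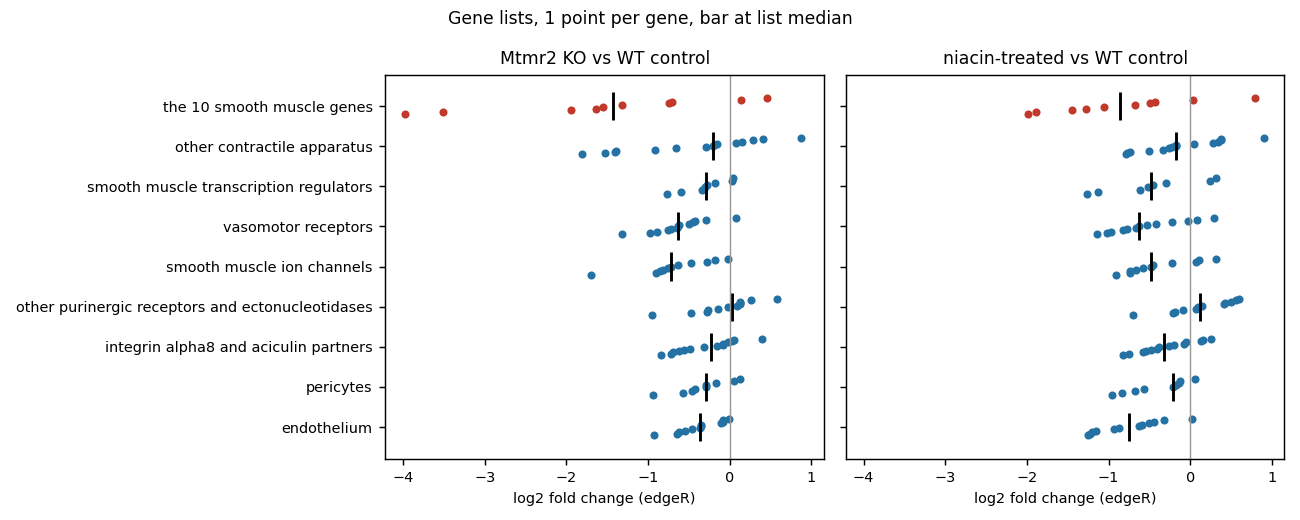
Log2 fold changes of single genes by list (points) with the list median (bar), for *Mtmr2* KO and for niacin-treated *Mtmr2* KO against WT control. In *Mtmr2* KO the 10 smooth muscle genes have a median of -1.44, ion channels -0.72, vasomotor receptors -0.63 and endothelium -0.36.

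Markers of other cell types differed in part in the same direction. Of 9 pericyte genes, 7 were lower in *Mtmr2* KO, with a median of -0.29 and *Anpep* called lower, and their summed level was 681 to 733 CPM in WT control and 418 to 625 CPM in *Mtmr2* KO. All 12 endothelial genes were lower, with a median of -0.36 and none called, at 824 to 880 CPM in WT control and an overlapping 344 to 1054 CPM in *Mtmr2* KO. *Plin1* and *Lep* were called lower among 11 adipocyte genes, 10 of them lower with a median of -0.51, and the summed level was 4384 to 5638 CPM in WT control and 1153 to 7849 CPM in *Mtmr2* KO. *Plin1*, *Lep*, *Lipe* and *Ucp1* of this list, and *Tek* of the endothelial list, were also on the study's own lists of genes lowered in these libraries. Their values are therefore not independent of those lists. The calls of *Anpep*, *Plin1* and *Lep* stand beside 0.267% of all tested genes. No gene at all was called in this comparison when any single WT control library was left out. Epineurial fibroblast genes had a median of -0.74 with 6 of 8 lower, perineurial genes one of 0.04, and myelinating Schwann cell genes one of 0.15 with 8 of 12 higher. The 4 tested neutrophil genes of 8 had a median of 3.49, from levels under 8 CPM. The part of these cell types in the values of the 10 genes was not tested.

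The ratio of *Myh11* to the summed pericyte genes within a library was 0.226 ± 0.086 in WT control, 0.0965 ± 0.0355 in *Mtmr2* KO and 0.141 ± 0.042 after niacin. *Myh11* over the summed endothelial genes was 0.183 ± 0.066, 0.0792 ± 0.0177 and 0.149 ± 0.037. Both ratios were lower in every *Mtmr2* KO library than in every WT control library, at 0.0514 to 0.137 against 0.148 to 0.329 for pericytes and 0.0625 to 0.104 against 0.119 to 0.255 for endothelium. *Myh11* was chosen with this comparison in view and its own level already separated these groups. The separation of the ratios is therefore a description, and nothing is read from it. After niacin, the pericyte ratio was 0.104 to 0.194 and overlapped both *Mtmr2* KO and WT control. The endothelial ratio was then 0.124 to 0.205, above every *Mtmr2* KO library and overlapping WT control. All endothelial genes but 3 were lower after niacin than in *Mtmr2* KO, and their part in this ratio was not tested.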

How the data were processed

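Poly(A)-selected RNA of 12 sciatic nerves was sequenced on an Illumina HiSeq. Per the labels, the authors used CASAVA 1.9, STAR and DESeq2 with GRCm38, and they deposited raw read counts per Ensembl gene, whole numbers without normalization. For STAR the version, and for the counter the name, annotation and strand setting, were not given in the sources used here. Tables made by the authors with DESeq2 and deposited beside the counts hold fold changes and p-values, which were not used; only their symbols were. Totals were 20763951 to 33191106 counts per library, and the precision of low genes is limited by their counts, as given for *P2rx1*.

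The analysis used edgeR 4.0.16 under R 4.3.3. Of 33882 genes with a count, 17257 passed filterByExpr with the 3 groups. One quasi-likelihood model over the 12 libraries with TMM scaling and no covariate gave the 3 comparisons, two-sided, with Benjamini-Hochberg adjustment over all 17257 genes and calls at an adjusted p under 0.05. CPM used TMM-scaled totals, and log2 CPM a prior count of 2. Groups were separate when no library of one reached into the other. The scripts were tested on simulated data. Locations and exon lengths came from GENCODE M21 on GRCm38, and promoter windows from RefSeq.

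Groups came from the labels. The members and all gene lists were chosen with earlier results of these data known. The text names the 10 genes, *Mtmr2*, the 4 most abundant and all called genes (where 5 or fewer) of each list, the 8 genes most like the mean of the 10 and the 5 most like *P2rx1*. Other genes are said to be named after their values were seen, except *Ednra*, *Adra1d*, *Npr1*, *Lipe* and *Ucp1*, named for being on the study's own lists. Alternatives were DESeq2 1.42.0 (all libraries and 2 groups), limma-voom 3.58.1 with quality weights, DESeq2 size factors, edgeR on 2 groups, other filters, *Xist* as a covariate and each library left out. Leaving out libraries 4506 and 4507 together was chosen after seeing the data.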

Additional observations from a re-analysis of the deposited data

How the results depend on the processing

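The medians of the 10 genes between *Mtmr2* KO and WT control stayed between -1.70 and -1.23 in every alternative, but the number called did not. For *Mtmr2* KO against WT control, where 2 of the 10 genes and 0 of the pathway list genes were called, DESeq2 on all 12 libraries called 6 and 13 (4.16% of all genes), DESeq2 on only the 2 groups 6 and 10 (2.63%), limma-voom 0 and 2 (0.626%), and the fit without a filter 6 and 8 (1.01%). The set was chosen on this comparison, so these counts support nothing. The members called were 0 with edgeR on only the 2 groups (0% of all genes), with *Xist* as a covariate (0.0695%) and without libraries 4506 and 4507 (0.0323%). With at least 10 counts in every library, where *P2rx1* could not be tested, 1 member was called (0.279%). Leaving out 1 library gave 0 to 3 members and 0 to 7 list genes, in fits that called 0% to 2.6% of all genes.

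For niacin-treated nerves against *Mtmr2* KO, where both counts were 0, limma-voom called 1 member and 8 list genes (11.6% of all genes), DESeq2 0 and 6 (7.02%), DESeq2 on 2 groups 0 and 1 (2.65%), and no filter 0 and 3 (1.69%). Leaving out 1 library gave 0 to 1 and 0 to 16, the highest without library 4502 (23.6%). Against WT control, where both were 0, the numbers were 3 and 14 with DESeq2 (7.22%), 5 and 34 with DESeq2 on 2 groups (36.6%), 4 and 34 with limma-voom (42.4%), 5 and 29 with edgeR on 2 groups (33.9%), 2 and 6 without a filter (0.918%), and 0 to 5 and 0 to 24 without 1 library, again highest without 4502 (21.6%).

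Signs turned only in the niacin comparisons and for *Tagln* and *Smtn*, which had no call in *Mtmr2* KO against WT control and there spanned -0.18 to 0.66 and -0.077 to 0.31. Against *Mtmr2* KO, limma-voom gave *Tagln* 0.38 and *Lmod1* 0.19, and without libraries 4506 and 4507 *Myh11* was at -0.085, *Acta2* at -0.19 and *Des* at -0.23. Leaving out 1 library gave -0.14 to 0.75 for *Acta2*, -0.34 to 0.16 for *Lmod1* and -0.63 to 0.090 for *Tagln*. Against WT control, *Tagln* was at -0.015 without a filter and -0.080 without libraries 4506 and 4507, and -0.13 to 0.17 without 1 library, and *Des* was at -0.99 without 4506 and 4507. The cause of these shifts was not tested. No paired analysis was possible because the groups share no replicate numbers. *P2rx1* rests on 3 to 10 counts per *Mtmr2* KO library, which limits its fold change.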
